A study of Mus musculus with 2 samples.

Results

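The 10 genes described here are the 4 Notch receptors of the mouse (Notch1 to Notch4), 3 of their ligands (Dll4, Jag1 and Jag2) and 3 members of the Hey family of target genes (Hey1, Hey2 and Heyl), out of 32285 genes listed. They were chosen by symbol, and each was found once. Single cells from the dissected choroid with its retinal pigment epithelium (RPE), taken from wild-type ICR mice 8 weeks old with no treatment in the labels, were profiled in 2 libraries with a droplet assay that counts 3' ends by unique molecular identifier (UMI). Each library pooled tissue from 1 male and 1 female mouse, so neither sex nor single animals can be separated. Barcodes were kept from 1000 UMIs and 500 genes upwards and up to 20% UMIs of mitochondrial genes, 8497 in library 1 and 13401 in library 2.

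Notch receptors are membrane proteins that are cut when a Delta-like or Jagged ligand on a neighbouring cell binds them. The released intracellular part joins the DNA-binding protein RBPJ and turns on genes of the Hey and Hes families, which encode transcriptional repressors. In blood vessels the pathway is known for arterial specification and sprouting control in endothelium, where Dll4 acts through Notch1 and Notch4, and for smooth muscle and pericyte maturation, where endothelial Jag1 acts on Notch3.

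Cells were grouped by summed UMIs of gate genes. Endothelial cells needed 5 UMIs of Pecam1, Cdh5 and Egfl7 and were split by the largest of an arterial sum (Gja5, Bmx and Gkn3), a capillary sum (Kcne3, Car4 and Cd300lg) and a venous sum (Selp, Ackr1 and Lrg1). Smooth muscle cells needed 5 UMIs of Myh11 and Cnn1, pericytes 3 of Kcnj8, Abcc9 and Higd1b, and fibroblasts 10 of Dcn and Col1a2. Cells with 2 or more UMIs of the leukocyte gene Ptprc were excluded, and cells that met gates of more than 1 lineage were left out. In libraries 1 and 2 this gave 25 and 26 arterial, 90 and 136 capillary and 196 and 245 venous cells. The other groups held 345 and 625 smooth muscle cells, 796 and 899 pericyte-gate cells, and 2915 and 4495 fibroblasts. Leukocyte, RPE, melanocyte and Schwann gates and endothelium with no leading bed gave 5 further groups for context.

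The kept cells held a median of 7842 and 8253 UMIs, and 31 kept barcodes occurred in both libraries. In every one of the 6 groups no marker on the list kept for that cell type was at 0. All 9 smooth muscle and all 8 fibroblast markers were highest in their own group among the 11 groups. For the endothelial beds at least 7 of 10 or 11 markers were highest in their own bed, compared among the 3 beds only. The pericyte gate was mixed. In it 36.1% and 29.7% of cells (287 and 267) had at most 2 UMIs of Rgs5, the most abundant pericyte gene. CPM here are UMIs scaled to the total of the group in that library. The summed level of 7 RPE markers was 9915 and 7542 CPM in the pericyte gate, against 36.8 to 2500 CPM in the other 5 groups. RNA of retinal rods, which the gates do not select, gave an estimated free-RNA share of 4.39% and 24.3% of the UMIs of this group. Results that rest on the pericyte group are therefore given with all of its cells and with those holding at least 3 Rgs5 UMIs, a limit chosen after the data were seen. Smooth muscle was mixed as well, since 34 of its 345 and 83 of its 625 cells also met the melanocyte gate. Among pericyte-gate cells 28 and 48 did. The 7 melanocyte markers summed to 1127 and 1800 CPM in smooth muscle, against 10.4 to 797 CPM in the other 5 groups. Arterial markers summed to 11892 and 14534 CPM in arterial, 9618 and 8477 in pericyte-gate and 9109 and 7005 in fibroblast-gate cells.

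**Figure D1:**
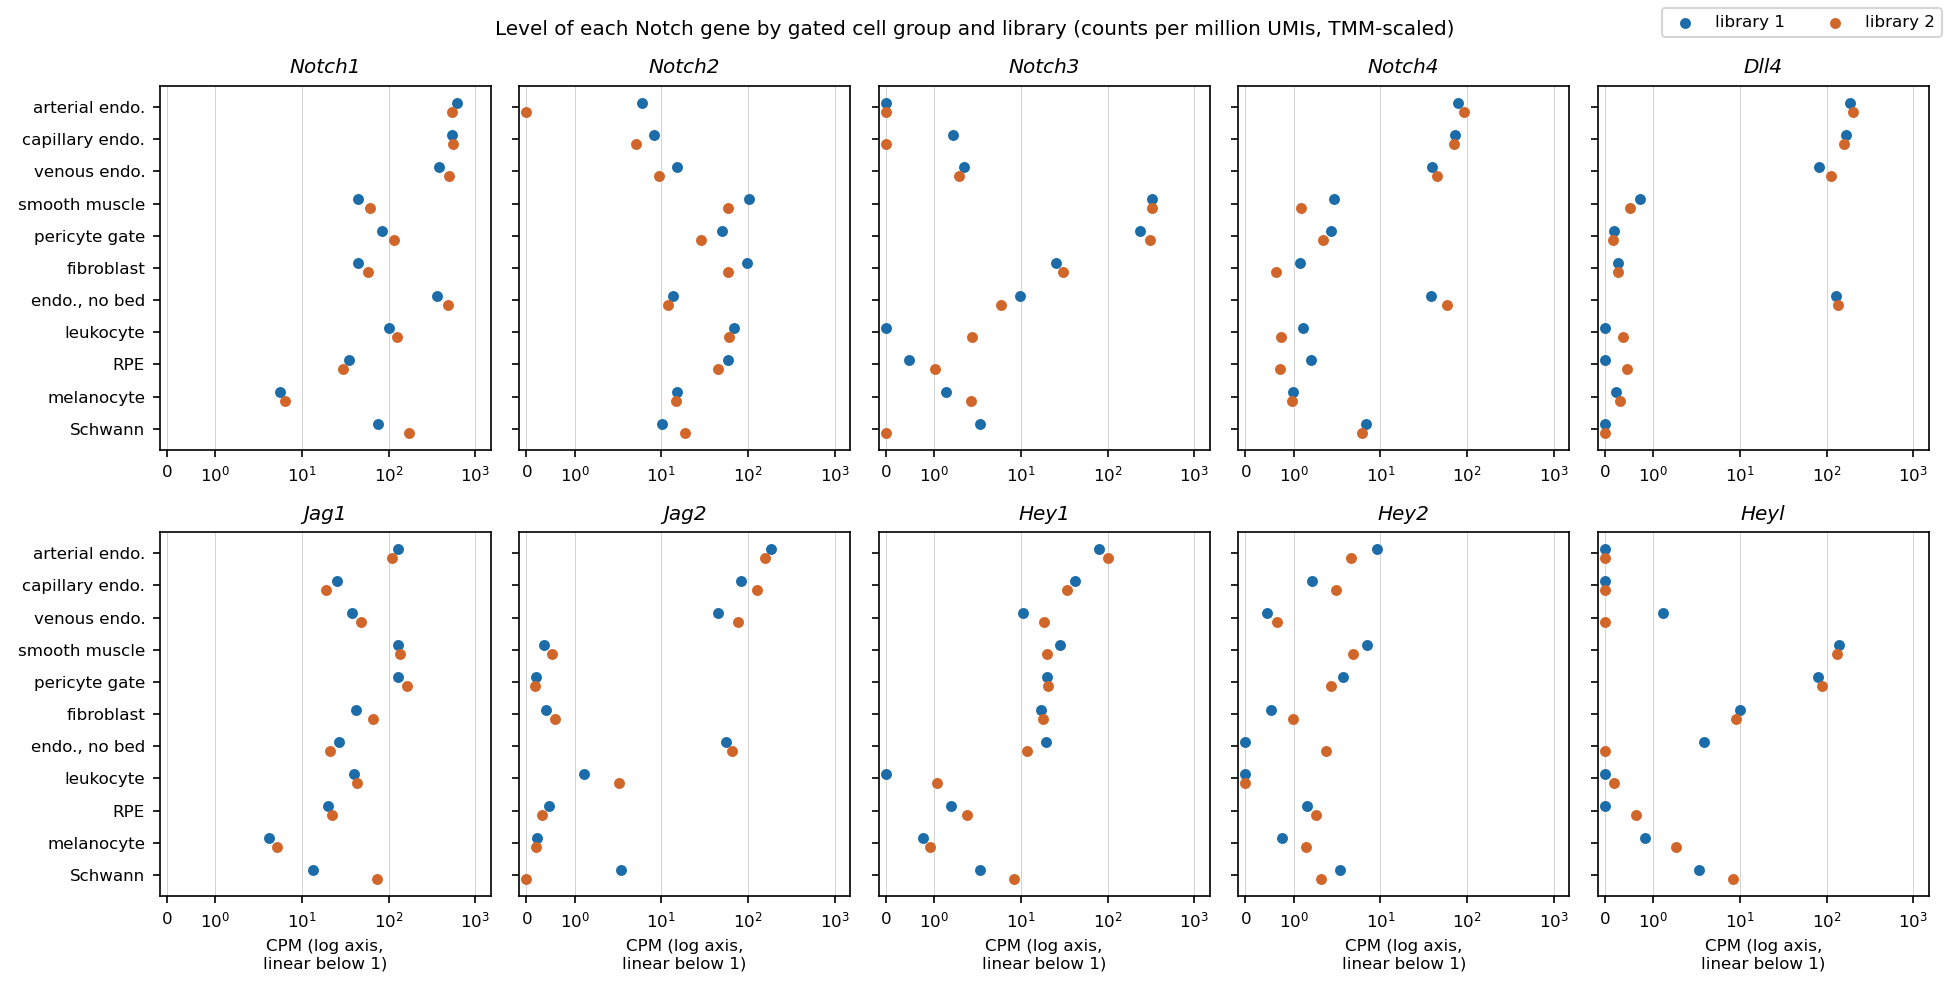
Level of each of the 10 genes (horizontal axis, TMM-scaled CPM on a log axis that is linear below 1) in the 11 gated cell groups (rows), with 1 point per library. Dll4, Jag2 and Notch4 sat above 38 CPM in every endothelial group and at or below 7 CPM in all others, while Notch3 and Heyl were highest in smooth muscle and pericyte-gate cells.

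The receptors divided the vessel wall between them. Endothelium carried Notch1 and Notch4, smooth muscle and pericyte-gate cells carried mainly Notch3, and fibroblasts carried Notch2 and Notch1. Of the UMIs of the 4 receptors, Notch1 took 85.5% to 89.7% in the 3 endothelial beds and Notch4 took 8.22% to 14.5%. Notch3 took 68.3% and 72.7% in smooth muscle and 63.3% and 67.8% in the pericyte group. In fibroblasts Notch2 took 57.7% in library 1 and 39.7% in library 2, and Notch1 took 26.4% and 39.2%, so the order of the 2 was clear in library 1 and nearly level in library 2. RPE-gate cells held 61.4% and 58.9% Notch2. These shares count 3' ends, 1 per captured molecule, and are not divided by gene length.

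**Figure D2:**
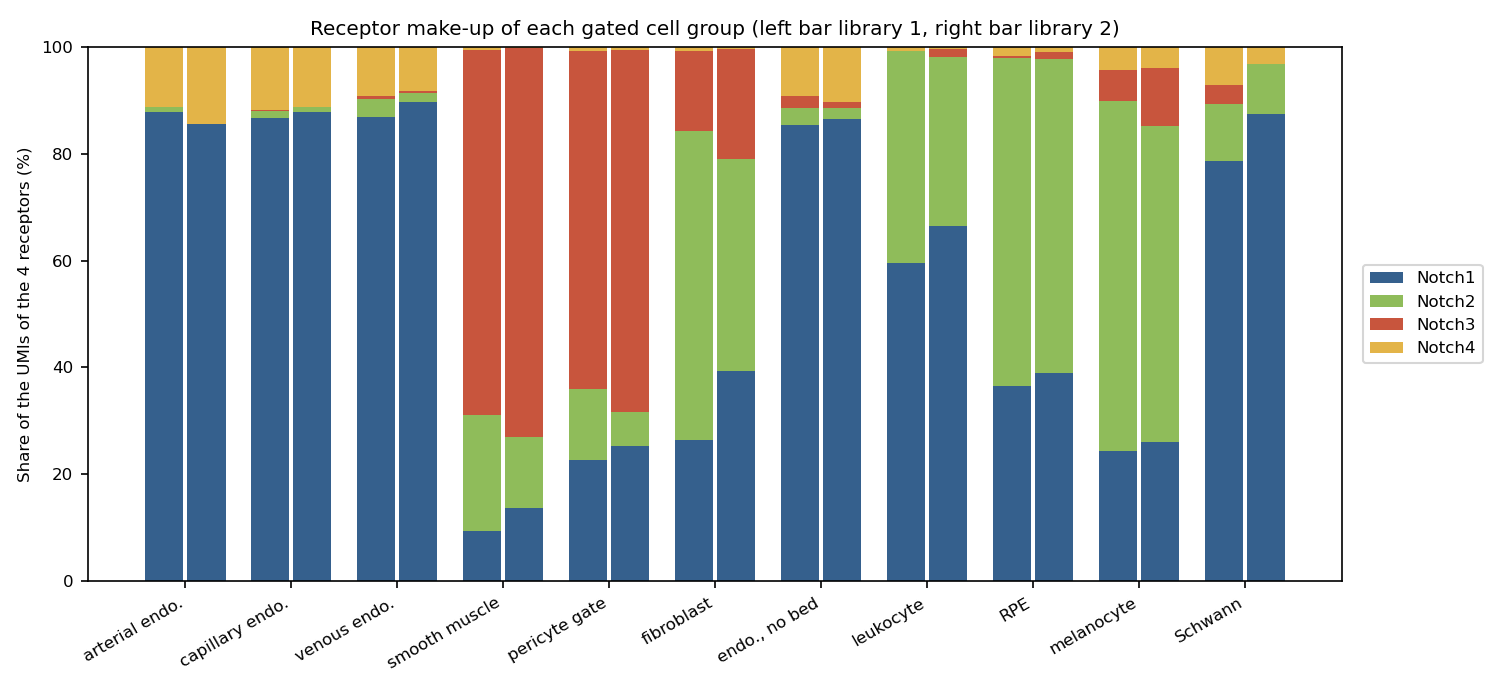
Share of the UMIs of the 4 receptors (vertical axis, percent) taken by each receptor in the 11 cell groups, with library 1 as the left and library 2 as the right bar of each pair. Notch1 fills over 85% of each endothelial bar and Notch3 over 63% of each smooth muscle and pericyte bar.

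Notch1 (ENSMUSG00000026923, chr2:26457903-26516663, minus strand, GRCm38) stood at 614 and 544 CPM in arterial, 540 and 548 CPM in capillary and 377 and 496 CPM in venous endothelium. It stood at 84.3 and 114 CPM in the pericyte group, 44.5 and 60.3 CPM in smooth muscle and 44.3 and 58.0 CPM in fibroblasts. The lowest endothelial value was thus above the highest value of any other group, whereas the ranges of smooth muscle and fibroblasts overlapped, as did those of arterial and capillary endothelium. Notch4 (ENSMUSG00000015468, chr17:34564268-34588503, plus strand), a receptor known mainly from endothelium, was at 78.6 and 92.2 CPM in arterial, 73.3 and 70.6 CPM in capillary and 39.8 and 45.4 CPM in venous endothelium. Smooth muscle, pericyte-gate cells and fibroblasts held at most 2.92 CPM of it.

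The promoter of Notch4 is shown because this gene followed the endothelial gate and is the member with the most matches to the ETS motif, the family of factors known for endothelial genes. RefSeq promoters (GRCm38.p6, 250 bases before to 50 after the start) were found for 8 of the 10 members, Hey1 and Heyl being the others. The letters AGGAAG, searched on both strands, occurred 4 times in that of Notch4, in none of the other 7, and at least once in 35.4% of all 32851 promoters, with 2 or more matches in 8.62%. The 250 bases before the start lie at chr17:34564045-34564294 on the plus strand, and capitals mark the 3 matches there, which begin 245, 197 and 73 bases before the start. This start is that of the RefSeq promoter, and the GENCODE start of the gene (34564268) lies inside these bases.
Notch4: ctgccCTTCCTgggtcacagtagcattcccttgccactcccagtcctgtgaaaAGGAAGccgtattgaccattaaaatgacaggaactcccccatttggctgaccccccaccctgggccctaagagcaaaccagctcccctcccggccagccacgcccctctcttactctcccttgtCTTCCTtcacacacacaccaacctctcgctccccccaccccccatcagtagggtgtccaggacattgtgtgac

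Notch3 (ENSMUSG00000038146, chr17:32120820-32166852, minus strand), the receptor known from vascular smooth muscle and pericytes, was at 325 and 322 CPM in smooth muscle and 236 and 305 CPM in the pericyte group. It fell to 25.3 and 30.5 CPM in fibroblasts. In the 3 endothelial beds together it was nearly absent, with 7 UMIs in library 1 and 6 in library 2 (1.79 and 1.27 CPM of library totals), and arterial cells held 0 UMIs in both libraries, which allows up to 9.07 and 13.8 CPM. The free RNA of the 2 libraries held 37.6 and 44.9 CPM of Notch3, so endothelial levels lay far under the free-RNA level. Fibroblast levels lay under it too. Notch2 (ENSMUSG00000027878, chr3:98013527-98150361, plus strand), a broadly expressed receptor, was at 104 and 59.4 CPM in smooth muscle, 96.7 and 58.8 CPM in fibroblasts and 49.7 and 28.6 CPM in the pericyte group. Both upper groups were higher in library 1 and their ranges overlapped. In endothelium it ranged from 0 to 15.3 CPM. Free RNA held 118 and 70.3 CPM of Notch2, above the level of all 6 groups, smooth muscle and fibroblasts included.

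Across endothelium and mural cells, taken as the mean of the 3 beds against the mean of smooth muscle and pericyte-gate cells, all 4 receptors differed. Notch1 was higher in endothelium by 2.85 ± 0.14 (log2, SE; edgeR quasi-likelihood test, adjusted p = 4.9e-14) and Notch4 by 4.91 ± 0.25 (adjusted p = 8.4e-14, edgeR). Notch3 and Notch2 were higher in mural cells (adjusted p = 6.3e-14 and 1.3e-10, edgeR). Their fitted differences depend on groups with no UMIs, so the ratio of summed counts is given: mural over endothelial Notch3 was 144-fold in library 1 (95% exact interval 69.6 to 358, counting error only) and 265-fold in library 2 (121 to 721), and Notch2 5.48-fold (4.06 to 7.55) and 5.67-fold (4.09 to 8.07). In the same comparison Dll4 (8.73 ± 0.26 log2) and Jag2 (8.44 ± 0.28 log2) were also called higher in endothelium and Jag1 and Heyl higher in mural cells. That made 4 members called in each direction, against 10.4% and 20.4% of all 13892 genes tested (adjusted p under 0.05 and at least 1 log2 unit). Without library 1 the fitted Notch2 difference moved from -3.08 to -5.60, since arterial cells of library 2 held 0 Notch2 UMIs.

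The ligands separated in the same way, except for Jag1. Dll4 (ENSMUSG00000027314, chr2:119325784-119335962, plus strand), the endothelial Delta-like ligand, was at 184 and 203 CPM in arterial, 167 and 159 CPM in capillary and 80.9 and 113 CPM in venous endothelium. Smooth muscle, pericyte-gate cells and fibroblasts held 0.168 to 0.729 CPM, with 7 UMIs among 2915 fibroblasts of library 1 and 13 among 4495 of library 2. Summed over beds, Dll4 was 316-fold (107 to 1538, counting interval) and 404-fold (157 to 1487) above mural cells, which held 3 and 4 UMIs. Jag2 (ENSMUSG00000002799, chr12:112907819-112929776, minus strand) was at 184 and 157 CPM in arterial, 82.3 and 128 CPM in capillary and 45.5 and 76.7 CPM in venous cells. It lay between 0.168 and 0.584 CPM in the 3 groups outside endothelium.

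Jag1 (ENSMUSG00000027276, chr2:137081456-137116644, minus strand), a Jagged ligand known from arteries, was the only ligand of the 3 at over 1 CPM in the mural groups. It stood at 129 and 164 CPM in pericyte-gate cells, 127 and 136 CPM in smooth muscle and 127 and 111 CPM in arterial endothelium. Fibroblasts followed with 42.3 and 65.3 CPM, venous endothelium with 37.6 and 47.7 CPM and capillary endothelium with 25.3 and 18.9 CPM. Pericyte-gate cells and smooth muscle overlapped, and so did fibroblasts and venous cells. Averaged over beds, Jag1 was lower in endothelium than in mural cells by -1.53 ± 0.16 (adjusted p = 6.3e-08, edgeR).

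The share of cells with at least 1 UMI of Dll4 was 60% and 69.2% of arterial, 63.3% and 64.7% of capillary and 36.7% and 36.3% of venous cells, against 0.240% and 0.245% of fibroblasts. The median depth was 9340 and 9765 UMIs in fibroblasts and 5362 to 9480 UMIs in the beds. After thinning each cell to 2000 UMIs, which left out 5 and 3 venous, 2 and 2 capillary and none of the arterial cells, the shares were 28.0% and 46.2%, 25% and 28.4%, and 9.95% and 11.2%. Arterial and capillary shares overlapped in both forms, and venous shares were lower in both libraries. For Notch3 the share was 73.6% and 78.2% of smooth muscle cells and 54.5% and 64.3% of pericyte-gate cells, against at most 2.04% in any endothelial bed.

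Within endothelium the mean levels of the 3 ligands and of Hey1 were highest in the arterial group. Among arterial, capillary and venous cells, Jag1 and Hey1 were higher in arterial than in capillary cells, and Dll4, Jag1, Jag2 and Hey1 were higher in arterial than in venous cells. The receptors did not pass the test between any beds, except that Notch2 was called lower in arterial than in venous cells (adjusted p = 0.024, edgeR, over alternatives 0.024 to 0.96) where cells that also met an RPE, melanocyte or Schwann gate were left out. The 2 arterial comparisons share their arterial cells and are not independent, and the arterial group rests on 25 and 26 cells.

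**Figure D3:**
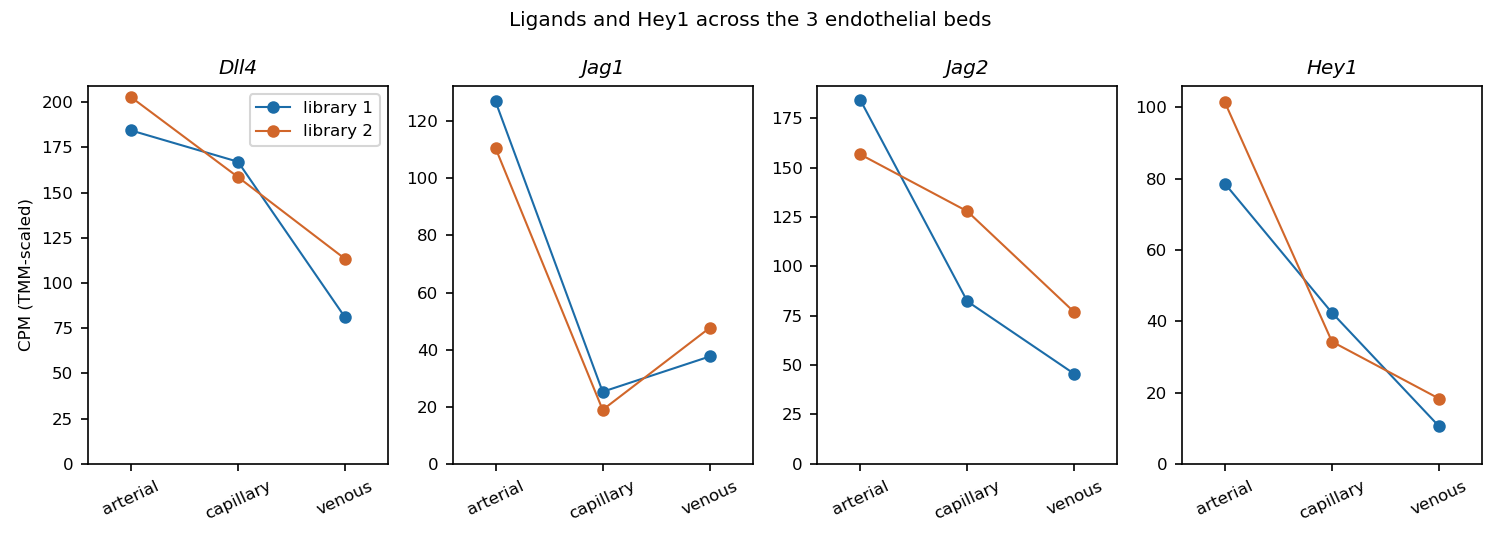
TMM-scaled CPM (vertical axis, from 0) of Dll4, Jag1, Jag2 and Hey1 in arterial, capillary and venous endothelium, with 1 line per library. Arterial values lie above venous values for each gene in both libraries, and Jag1 is lowest in capillary cells.

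Against capillary cells, arterial Jag1 was 2.51 ± 0.35 log2 units higher (adjusted p = 4.9e-05, edgeR), with no overlap between the libraries of the 2 groups. Hey1, the target gene known from arterial endothelium, was 1.23 ± 0.34 log2 units higher (adjusted p = 0.025, edgeR). Jag2 was 0.76 ± 0.24 higher, which did not pass (adjusted p = 0.056, edgeR). So 2 of 10 members were called higher in arterial cells, against 2.86% of all genes. Without library as a block the Hey1 difference was 1.22 and no longer passed (adjusted p = 0.065, edgeR, over alternatives 0.0025 to 0.065).

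Against venous cells, 4 of 10 members were called higher in arterial cells, against 1.71% of all genes. Hey1 differed by 2.59 ± 0.36 log2 units (adjusted p = 7.8e-05, edgeR), Jag2 by 1.55 ± 0.25 (adjusted p = 3.2e-04), Jag1 by 1.52 ± 0.31 (adjusted p = 0.0043) and Dll4 by 1.00 ± 0.22 (adjusted p = 0.0081). Dll4 sat on the limit of 1 log2 unit, and 8 of 13 alternatives put it under that limit or over an adjusted p of 0.05, with values from 0.75 to 1.13. Where cells meeting several gates were assigned in a fixed order instead of left out, Jag1 differed by 1.12 and no longer passed (adjusted p = 0.064, edgeR, over alternatives 6.2e-06 to 0.064). Notch4 was 0.97 ± 0.33 higher in arterial cells and did not pass (adjusted p = 0.093, edgeR).

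Between capillary and venous cells 1 of 10 members, Hey1, was called higher in capillary cells, against 0.993% of all genes. The difference was 1.36 ± 0.30 log2 units (adjusted p = 0.0066, edgeR), and 0.91 without library 1 and 2.01 without library 2. Dll4 (0.75 ± 0.19, adjusted p = 0.020) and Jag2 (0.79 ± 0.21, adjusted p = 0.027, edgeR) had an adjusted p under 0.05 but stayed under 1 log2 unit. Jag1 went the other way, at -0.99 ± 0.30 (adjusted p = 0.063, edgeR), and passed in 3 of 14 alternatives: without the filter on low counts (-1.03), with a bed lead of 2 UMIs (-1.21) and without cells that also met an RPE, melanocyte or Schwann gate (-1.10; adjusted p over alternatives 0.0044 to 0.36). The Hey1 call was lost without the library block (adjusted p = 0.051) and with gates assigned in order (0.88, adjusted p = 0.11, edgeR, over alternatives 3.1e-04 to 0.11).

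Hey1 (ENSMUSG00000040289, chr3:8663359-8667256, minus strand) was unevenly spread over capillary cells. It was at 78.6 and 101 CPM in arterial, 42.4 and 34.3 CPM in capillary and 10.5 and 18.3 CPM in venous cells. In capillary endothelium 52 UMIs came from 12 of 90 cells of library 1 and 67 UMIs from 17 of 136 cells of library 2, and 1 cell alone held 26 and 22 of them. Without that cell the capillary level would be 21.8 and 26.1 CPM of library totals in place of 42.4 and 38.1. In arterial endothelium no cell held over 5 Hey1 UMIs, and 44.0% and 38.5% of cells had at least 1. Outside endothelium Hey1 was at 28.4 and 19.9 CPM in smooth muscle, 19.9 and 20.7 CPM in pericyte-gate cells and 17.1 and 17.8 CPM in fibroblasts, with the first 2 groups overlapping.

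Heyl (ENSMUSG00000032744, chr4:123233556-123249875, plus strand), a target gene known downstream of Notch3 in smooth muscle, followed the mural gates. It was at 140 and 131 CPM in smooth muscle, 79.7 and 87.3 CPM in pericyte-gate cells and 10.0 and 8.96 CPM in fibroblasts, and these 3 groups did not overlap. The 3 endothelial beds together held 3 UMIs in library 1 and 0 in library 2, against 796 and 1268 in mural cells. Mural cells were 126-fold higher in library 1 (43.0 to 614, counting interval) and at least 183-fold higher in library 2, set against a floor of 3 counts over the 3 beds. Free RNA held 12 and 15.3 CPM of Heyl, above the fibroblast levels, and made up an estimated 1.45% and 2.96% of fibroblast UMIs. The mural over endothelial difference passed the test (adjusted p = 1.3e-10, edgeR).

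Hey2 (ENSMUSG00000019789, chr10:30832359-30842801, minus strand), a target gene known from arteries and heart, was the sparsest member. It was at 9.07 and 4.61 CPM in arterial cells, where these rest on 3 and 1 UMIs, 6.93 and 4.89 CPM in smooth muscle (19 and 28 UMIs), 3.67 and 2.69 CPM in pericyte-gate cells and 0.522 and 0.986 CPM in fibroblasts. Capillary and venous cells held 1.63 and 3.07 CPM and 0.437 and 0.653 CPM. Only 4.93% and 4.48% of smooth muscle cells had a Hey2 UMI, against 0.377% and 0.979% of fibroblasts at a higher median depth. Free RNA held 2.00 and 1.63 CPM, so several of these levels are of the size of the free RNA.

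The Hey2 promoter is shown because, of the 8 members with a promoter in the table, it alone held the RBPJ motif. The letters GTGGGAA, searched on both strands, occurred 2 times in it and at least once in 6.38% of all 32851 promoters, with 2 or more in 0.256%. The shorter core TGGGAA, which GTGGGAA contains, matched at the same 2 places and is found in 25.6% of promoters. The matches point away from each other, 1 on the opposite strand beginning 207 bases and 1 on the gene's strand beginning 4 bases before the start. The window runs from 250 bases before to 10 bases after the start (chr10:30842774-30843033, minus strand), with the matches in capitals. This start is that of the RefSeq promoter, and the GENCODE start of the gene (30842801) lies inside the window, before it.
Hey2: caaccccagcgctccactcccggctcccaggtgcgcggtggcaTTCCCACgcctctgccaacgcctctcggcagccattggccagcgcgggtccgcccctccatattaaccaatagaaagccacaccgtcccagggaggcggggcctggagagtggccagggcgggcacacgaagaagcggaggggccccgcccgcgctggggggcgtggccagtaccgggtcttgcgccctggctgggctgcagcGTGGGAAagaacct

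Smooth muscle and pericyte-gate cells differed in few members. Notch2 was higher in smooth muscle by 1.05 ± 0.20 log2 units (adjusted p = 2.9e-04, edgeR), and it was the 1 of 10 members called, against 7.54% of all genes. Notch1 was lower in smooth muscle by -0.91 ± 0.20 (adjusted p = 0.0013, edgeR), under the limit of 1 log2 unit, which it passed with doubled gates (-1.09) and with free RNA subtracted (-1.05). Heyl (0.70 ± 0.26, adjusted p = 0.060) and Notch3 (0.27 ± 0.22, adjusted p = 0.43, edgeR) did not pass. With gates assigned in order Heyl passed at 1.28 (adjusted p = 0.0012, edgeR, over alternatives 0.0012 to 0.62) and Hey2 at 1.60 (adjusted p = 0.014, edgeR, over alternatives 0.014 to 0.71). With doubled gates Notch4 passed at -1.71 (adjusted p = 0.012, edgeR, over alternatives 0.012 to 0.94). The Notch2 call was lost where gates were assigned in order, at 0.47 (adjusted p = 0.13, edgeR, over alternatives 5.9e-06 to 0.13), and the value was 0.99 on library totals.

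The make-up of the pericyte gate moved these values. Its cells with at most 2 Rgs5 UMIs held 28.5 and 58.2 CPM of Notch3, 20.8 and 37.1 CPM of Heyl and 37.2 and 69.1 CPM of Jag1 (library totals). Cells with 3 or more held 366 and 437 CPM of Notch3, 116 and 117 CPM of Heyl and 186 and 220 CPM of Jag1. The RPE gene Rpe65 was at 2098 and 1529 CPM in the former and 21.1 and 305 CPM in the latter. Against cells with 3 or more Rgs5 UMIs, Notch3 went to -0.30 ± 0.22 (adjusted p = 0.39, edgeR) and Hey1 to -0.19 ± 0.25 in smooth muscle, both with the opposite sign, and the Heyl difference shrank to 0.22 ± 0.26. Notch1 then passed at -1.04 ± 0.20 (adjusted p = 3.4e-04, edgeR) and Notch2 at 1.27 ± 0.20 (adjusted p = 4.6e-05, edgeR). The part of RPE RNA or of other cells in the full group's values was not tested beyond this.

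**Figure D4:**
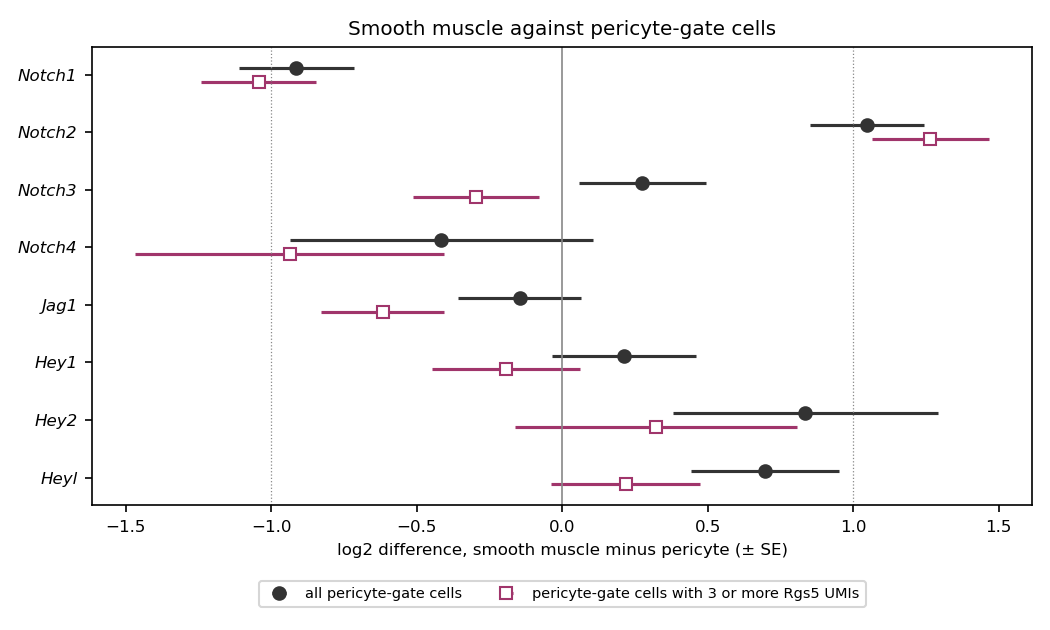
Log2 difference (horizontal axis, smooth muscle minus pericyte, bars ± SE, dotted lines at 1 log2 unit) of the 8 members with at least 10 UMIs per library in either group, with all pericyte-gate cells (filled) and with those holding 3 or more Rgs5 UMIs (open). Notch3 and Hey1 change sign between the 2, and Notch1 and Notch2 lie near or past 1 unit in both.

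Fibroblasts were compared with endothelium and with mural cells. Against endothelium 6 of 10 were called higher in endothelium (11.2% of all genes) and 3, Notch2, Notch3 and Heyl, higher in fibroblasts (22.0% of all genes). Notch1 was higher in endothelium by 3.35 ± 0.19, Hey1 by 1.07 ± 0.20 and Hey2 by 1.47 ± 0.57 log2 units (adjusted p = 6.9e-13, 1.2e-04 and 0.037, edgeR). Each endothelial value is the mean of the 3 beds. Venous cells alone overlapped fibroblasts in Hey1 (10.5 and 18.3 against 17.1 and 17.8 CPM). Their Hey2 was lower in each library (0.437 and 0.653 against 0.522 and 0.986 CPM). Endothelial Hey2 rests on 6 and 9 UMIs. Its ratio of summed counts over fibroblasts was 3.34 (1.05 to 9.26, counting interval) and 1.88 (0.813 to 3.87). With gates assigned in order Notch3 stood at -1.03 (endothelial minus fibroblast) and no longer passed (adjusted p = 0.054, edgeR, over alternatives 1.1e-38 to 0.054). Hey1 lay just under 1 log2 unit in 3 of 13 alternatives (lowest 0.98). Hey2 lost its call without the filter on low counts (1.40, adjusted p = 0.068) and without cells that also met an RPE, melanocyte or Schwann gate (0.92, adjusted p = 0.34, edgeR, over alternatives 0.014 to 0.34). Jag1 did not differ beyond its error as a mean of the beds, at -0.14 ± 0.19. The beds went different ways, since arterial Jag1 (127 and 111 CPM) lay above fibroblasts (42.3 and 65.3 CPM). Capillary Jag1 (25.3 and 18.9 CPM) lay below them and venous Jag1 overlapped them.

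Against mural cells 5 of 10 members were called lower in fibroblasts (8.68% of all genes higher in mural cells): Heyl by 3.49 ± 0.26, Notch3 by 3.41 ± 0.22, Hey2 by 2.44 ± 0.38, Jag1 by 1.38 ± 0.19 and Notch4 by 1.28 ± 0.36 log2 units, with adjusted p between 5.8e-10 and 0.0068 (edgeR). Notch4 rests on 22 and 20 UMIs in mural cells. Hey2 gave 1.87 without library 1 and 3.22 without library 2. With gates assigned in order the Jag1 difference was 0.94, under the limit. With pericyte-gate cells limited to 3 or more Rgs5 UMIs, the member calls of mural cells against endothelium and against fibroblasts held, and Hey2 was also called lower in endothelium than in mural cells (-1.26, adjusted p = 0.034, edgeR, over alternatives 0.011 to 0.48).

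Barcodes that met both the pericyte and the fibroblast gate were frequent, 780 in library 1 and 1405 in library 2, and were left out of both groups. Their Notch3 level, 81.3 and 97.0 CPM of library totals, lay between those of the groups, as did Heyl at 27.3 and 25.7 CPM. Among fibroblast-gate cells Notch3 was 19.0 and 24.9 CPM in cells with 0 UMIs of Kcnj8, Abcc9 and Higd1b, 28.1 and 41.9 CPM with 1, and 39.0 and 51.6 CPM with 2. Both libraries thus showed more Notch3 with each pericyte UMI. Pericyte-gate cells with at most 2 fibroblast-gate UMIs held 211 and 379 CPM. Notch2 went the other way in library 2 (61.4, 59.1, 54.4 and 47.8 CPM from 0 UMIs to both gates) and showed no such order in library 1 (83.1, 85.3, 103 and 85.2 CPM). The rise was not particular to Notch3. From 0 UMIs to both gates Notch1 rose from 34.3 to 76.1 and from 52.6 to 113 CPM. The fibroblast gene Pdgfra rose from 196 to 260 and from 287 to 364 CPM. The pericyte gene Cspg4 fell from 86.7 to 37.6 and from 115 to 65.2 CPM. Median depth fell from 9786 to 6751 and from 10329 to 7383 UMIs. These bins are a description.

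**Figure D5:**
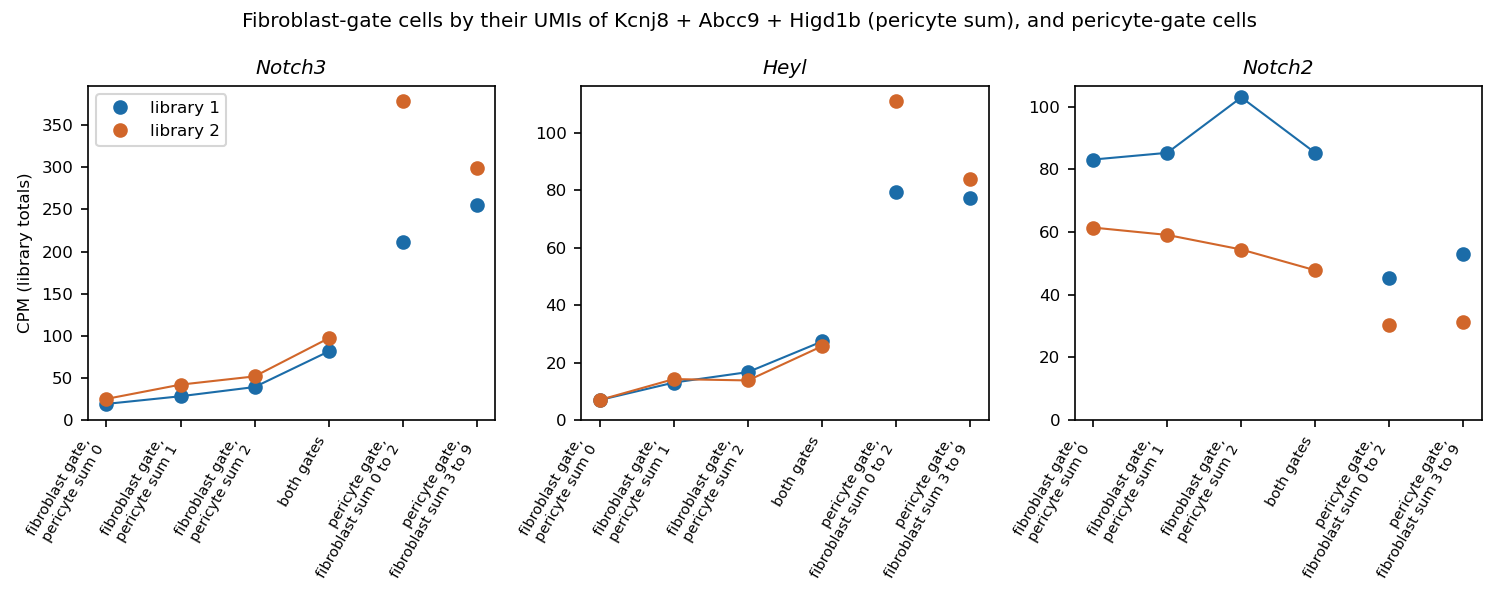
CPM of library totals (vertical axes, from 0) of Notch3, Heyl and Notch2 in fibroblast-gate cells with 0, 1 or 2 pericyte-gate UMIs, in cells meeting both gates, and in pericyte-gate cells split by fibroblast-gate UMIs, with 1 colour per library. Notch3 rises from 19.0 and 24.9 CPM to 81.3 and 97.0 CPM over the first 4 bins.

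Other genes of the pathway were taken from a list of 38, of which 36 were tested. In capillary endothelium 5 were called higher than in arterial cells: Nrarp, a target gene that feeds back on Notch signalling, at -2.38 ± 0.36, Maml3, a coactivator, at -2.03 ± 0.48 and Hes1, a target gene, at -1.72 ± 0.30 (log2, arterial minus capillary), and Dlk1 and Neurl1b. The median of the list was -0.21 (log2, arterial minus capillary) and that of all genes -0.13, and 3.75% of all genes were called higher in capillary cells. Nrarp stood at 63.5 and 46.1 CPM in arterial, 316 and 246 CPM in capillary and 122 and 82.0 CPM in venous cells, so it was highest where Hey1 was intermediate. Hes1 stood at 242 and 240 CPM, 904 and 670 CPM, and 548 and 341 CPM. Arterial cells held 3 and 2 UMIs of Maml3 and 0 UMIs of Dlk1 and Neurl1b. Dlk1 in capillary cells came from 4 and 7 cells, 1 of which held 144 of 161 and 156 of 229 UMIs. With free RNA subtracted 3 of the 5 calls were lost: Hes1 (-1.71, adjusted p = 0.19, edgeR, over alternatives 4.9e-14 to 0.19), Dlk1 (adjusted p = 0.11) and Neurl1b (adjusted p = 0.060). The Dlk1 call was also lost with gates assigned in order (adjusted p = 0.081, edgeR).

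Against venous cells, 2 of 36 were called, Maml3 and Dlk1, both higher in venous cells (2.54% of all genes; list median -0.10, all genes -0.17, arterial minus venous). Maml3 was at 9.07 and 9.22 CPM in arterial and 27.6 and 33.3 CPM in venous cells, and 5 of 13 alternatives lost its call. Its arterial levels rest on 3 and 2 UMIs, at or under the floor of 3 counts (9.07 and 13.8 CPM). Dlk1 in venous cells came from 4 cells in each library, 1 of which held 158 of 171 and 193 of 231 UMIs. The Dlk1 call was lost with gates assigned in order (adjusted p = 0.57) and with free RNA subtracted (adjusted p = 0.23, edgeR). Between capillary and venous cells Nrarp alone, 1 of 36, was called, against 0.993% of all genes higher in capillary cells. It was 1.48 ± 0.25 higher in capillary cells (adjusted p = 0.0013, edgeR), with a list median of 0.16 against 0.00095 for all genes. Without the library block it did not pass (adjusted p = 0.13, edgeR, over alternatives 7.2e-11 to 0.13).

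In mural cells Nrarp marked smooth muscle, at 497 and 317 CPM against 32.7 and 24.1 CPM in the pericyte group and 1.08 and 1.09 CPM in fibroblasts. The difference between smooth muscle and pericyte-gate cells was 3.82 ± 0.27 log2 units (adjusted p = 5.8e-09, edgeR), and 3.19 against cells with 3 or more Rgs5 UMIs. Psen2, a subunit of the gamma-secretase that cuts Notch, was 1.04 ± 0.20 higher in smooth muscle (adjusted p = 3.7e-04, edgeR), and lay just under 1 log2 unit in 3 of 14 alternatives (lowest 0.97). Dll1, another Delta-like ligand, was lower there at -4.32 ± 0.44 (adjusted p = 7.0e-07, edgeR), and so was Dtx4 at -1.22 ± 0.40 (adjusted p = 0.028, edgeR). In the pericyte group Dll1 came largely from cells with at most 2 Rgs5 UMIs, at 72.4 and 120 CPM, against 9.13 and 16.5 CPM in the others. Its difference was -2.72 with those cells left out. So 2 of 36 were called higher in smooth muscle and 2 higher in pericyte-gate cells (7.05% of all genes), with a list median of 0.016 against -0.016.

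Between endothelium and mural cells 8 of 36 were called higher in endothelium and 3 higher in mural cells, against 10.4% and 20.4% of all genes, with a list median of 0.19 against -0.25. The endothelial side included the Fringe glycosyltransferases Mfng and Lfng, which modify the receptors and change their response to ligands, and the ligand Dll1. Mfng was at 50.7 to 105 CPM in the beds and at most 0.387 CPM in smooth muscle and pericyte-gate cells (8.47 ± 0.33 log2 units). Lfng was at 9.07 to 36.9 CPM in the beds and at most 3.36 CPM in mural cells. Dll1 was at 54.5 to 102 CPM in the beds (3.04 ± 0.29 log2 units against the mural mean). The 2 mural groups were unlike in Dll1. Smooth muscle held 11 and 5 UMIs, in 2.03% and 0.8% of cells. Pericyte-gate cells held 179 and 252 UMIs, in 11.2% and 12.3% of cells. The mural side included Dtx4 and Numbl. Against fibroblasts 8 were called higher and 5 lower in endothelium, against 11.2% and 22.0% of all genes (list median 0.28, all genes -0.33). Mural cells against fibroblasts gave 2 higher, Nrarp and Neurl1b, and 4 lower, among them Dlk1, Pofut1 and Dll1 (list median -0.19, all genes -0.032, and 10.9% of all genes lower in mural cells). For Dll1 the lower mural mean holds for smooth muscle only. Fibroblasts had a Dll1 UMI in 9.40% and 14.4% of cells, a range that takes in the pericyte-gate shares. Pericyte-gate cells alone were not tested against fibroblasts. The Dll1 difference lost its call with gates assigned in order (-0.35, adjusted p = 0.28, edgeR, over alternatives 6.5e-12 to 0.28), and was -2.29 without library 1 and -0.88 without library 2.

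The genes with the profile most like each member were named by the Pearson correlation of log2 CPM over the 22 profiles of 11 groups in 2 libraries, which share gates, cells and libraries, so the values are descriptions. For Dll4 they were Adgrl4 (r = 0.991), Ccm2l and Podxl, for Jag2 Rasip1 (0.984), Sox18 and the gate gene Egfl7, for Notch4 Pim3 (0.958), Sema3g and Adgrg1, and for Notch1 Plcb1 (0.919), Rnf125 and Arap3. Notch3 lay nearest to Ednra (0.959), Pdgfrb and Rgs5, and Heyl to Ndufa4l2 (0.974), Rem1 and Myl9. Hey1 lay nearest to Ehd2 (0.948), Efnb2 and Dock6. Notch2 (Ctsc, 0.908), Hey2 (Lcat, 0.896) and Jag1 (D16Ertd472e, 0.836) had the least alike nearest genes.

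Outside the vessel wall the members were low, apart from Notch1, Notch2 and Jag1. Notch1 was at 74.8 and 173 CPM in Schwann-gate cells (22 and 84 UMIs) and 102 and 126 CPM in leukocyte-gate cells, which overlapped each other and the pericyte group. Notch2 averaged 64.4 CPM in leukocyte-gate and 52.4 CPM in RPE-gate cells (means of the 2 libraries). Jag1 averaged 41.9 CPM in leukocyte-gate cells and was at 13.6 CPM (4 UMIs) and 74.4 CPM (36 UMIs) in Schwann-gate cells, and melanocyte-gate cells held under 15 CPM of every member on average. An estimated 20.6% and 10.9% of the UMIs of leukocyte-gate cells were free RNA.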

How the data were processed

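The authors deposited unnormalized UMI counts for all barcodes. Per the file headers these came from Cell Ranger 4, whereas the submitters' processing notes name Cell Ranger 2.1.1, with mm10. The genes and lists were chosen with earlier results of these data known. Counts were summed per library and gated group (at least 20 cells in each library) and fitted with edgeR 4.0.16 (R 4.3.3): TMM scaling, filterByExpr, robust quasi-likelihood, library as a block, 11 groups in 22 profiles with 10 residual degrees of freedom, Benjamini-Hochberg over 13892 genes, tested on simulated data. The p-values measure how far the groups, all 11 together, departed from the shared difference between only 2 libraries. CPM are TMM-scaled unless said to be of library totals; the pooled 95% intervals (exact binomial) and floors of 3 counts cover counting error only. The libraries' totals were 91741168 and 149570817 UMIs. Groups of 1 library come from the same mice, and their deviations correlated over 0.1 in 41 of 55 pairs of groups. No doublet caller was used in the main fit, but cells meeting gates of several lineages (934 and 1705) were left out. Free RNA came from barcodes with at most 100 UMIs (4.90% and 4.11% of UMIs) and its share from rod genes. All 10 members, and of the pathway list those called with the 5 largest differences per comparison, were named. Gene positions are from GENCODE M21 (GRCm38). Alternatives are other scalings, no filter, DESeq2 1.42.0, no block, only the 6 groups and other gates. Further ones are at most 10% mitochondrial UMIs, Scrublet, free RNA subtracted and each library left out. Thinning was used only for shares of cells.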

Additional observations from a re-analysis of the deposited data

How the results depend on the processing

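Of 85 differences reported or tested between groups for members and pathway genes, 51 kept their call and sign under every tested alternative, and of 94 counts of called genes 92 stayed within 1.5 times. The exceptions came without the library block (no replicate block), a paired design by construction: 338 in place of 590 genes were called between arterial and venous cells and 189 in place of 400 between capillary and venous cells. Calls it ended are given beside the results, with the addition that Dll4 and Maml3 between arterial and venous cells and Dtx4 between smooth muscle and pericyte-gate cells also lost theirs (adjusted p = 0.094, 0.064 and 0.076, edgeR). With several gates assigned in order, arterial minus capillary Notch2 (0.24), Notch4 (-0.20) and Dll4 (-0.082), smooth muscle minus pericyte Jag1 (0.39) and mural minus fibroblast Jag2 (0.11) changed sign; doubled gates did so for arterial minus capillary Notch2 (0.58) and smooth muscle minus pericyte Notch3 (-0.053), at least 3 Rgs5 UMIs for Notch3 (-0.30) and Hey1 (-0.19), and library totals for endothelial minus fibroblast Jag1 (0.021). None of these had been called, and the cause was not tested. The Rgs5 limit and the removal of cells meeting an RPE, melanocyte or Schwann gate were chosen after seeing the data. With a bed lead of 2 UMIs, 18 arterial cells per library remained, and arterial and endothelial comparisons could not be fitted. With 1 library left out, differences are values with no test and did not enter the 51 of 85, and counts of called genes have none. Few arterial cells, and Hey2 at under 10 CPM, limit the depth.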
